A study of Mus musculus with 24 samples.

Results

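The 6 genes described here are transcription factors that set or maintain the identity and metabolism of kidney tubule cells: Hnf4a, Pax2, Pax8, Esrra, Nr1h4 and Tfcp2l1. They were chosen by symbol, and all 6 are among the 23955 symbols of the count table and passed the filter on low counts. They were measured by RNA-seq of mouse kidneys of the genotypes PLD4-/- (KO) and PLD4+/+ (WT), each as controls (day 0) or after UUO for 5 or 10 days, with 4 libraries for each of these 6 groups and 24 in all. UUO is unilateral ureteral obstruction, in which 1 ureter is tied, so the kidney upstream of it swells and scars. The labels used here give no age, sex, strain, allele design or day of surgery, and do not say whether the 4 libraries of a group come from separate animals. The p-values therefore measure only the spread between these libraries. In the text, CPM is the count per library size after TMM scaling (a factor that offsets differences in RNA composition), and FPKM is the deposited level per length. A gene is called higher or lower where its adjusted p is under 0.05 in edgeR's quasi-likelihood test over 15080 genes. Fold changes are on the log2 scale, each ± SE.

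Hnf4a is a nuclear receptor that drives the mature proximal tubule programme, including transporters and enzymes. Pax2 and Pax8 are paired-box factors that start nephron formation in the embryo and remain on in parts of the adult tubule. Esrra is an orphan nuclear receptor that works with the coactivator Ppargc1a on genes of mitochondrial respiration. Nr1h4 encodes FXR, the bile acid receptor, which binds DNA with Rxra and is also present in kidney tubules. Tfcp2l1 is a grainyhead-family factor of the distal nephron and collecting duct.

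The RefSeq promoter windows of Hnf4a and Nr1h4 show what lies just before their transcription starts. The sequences of Hnf4a are shown because the gene has a pair of starts that gene counts cannot tell apart, and that of Nr1h4 because it holds the letters that nuclear receptors bind. Each is the 250 bases before the start, 5′ to 3′ on the strand of the gene, in build GRCm38.p6. Capitals mark matches on either strand to CCGGTT, a short form of the TFCP2L1 motif, in the upstream Hnf4a window and to AGGTCA, the short form of nuclear receptor elements, in the Nr1h4 window. The Hnf4a windows are chr2:163506607-163506856 and chr2:163546905-163547154 on the plus strand, and the Nr1h4 window is chr10:89506659-89506908 on the minus strand.
Hnf4a upstream start: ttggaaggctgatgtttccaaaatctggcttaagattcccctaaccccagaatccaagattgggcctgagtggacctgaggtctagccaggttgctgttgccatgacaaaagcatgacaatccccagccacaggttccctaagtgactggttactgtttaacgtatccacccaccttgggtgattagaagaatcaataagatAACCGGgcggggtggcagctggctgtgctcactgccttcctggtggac
Hnf4a downstream start: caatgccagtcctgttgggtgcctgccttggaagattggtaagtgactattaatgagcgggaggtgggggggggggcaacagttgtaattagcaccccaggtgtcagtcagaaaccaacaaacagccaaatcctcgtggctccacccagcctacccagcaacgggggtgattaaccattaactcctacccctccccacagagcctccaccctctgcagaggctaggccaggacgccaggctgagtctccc
Nr1h4: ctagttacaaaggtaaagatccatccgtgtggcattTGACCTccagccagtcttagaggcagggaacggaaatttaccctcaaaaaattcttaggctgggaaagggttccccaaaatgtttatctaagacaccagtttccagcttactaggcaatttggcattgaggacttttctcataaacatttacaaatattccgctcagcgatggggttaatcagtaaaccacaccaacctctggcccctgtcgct

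The 9 letter strings reported here were searched on both strands in all 9 windows of the 6 genes and in 32851 RefSeq mouse windows of the same length. AGGTCA matched Nr1h4 alone, 214 to 209 bases before its start on the reverse strand (14% of all windows hold it). CCGGTT matched the upstream Hnf4a window alone, 48 to 43 bases before the start on the reverse strand (5.62%), and TATAAA matched Tfcp2l1 alone, 28 to 23 bases before its start (12.4%). No member window held CAAAGTCCA (0.384% of all windows) or CAAAGGTCA (0.426%) for HNF4, TCAAGGTCA for ERR (0.387%), AGGTCA, any base and TGACCT for FXR (0.00609%), GCGTGAC for PAX (1.78%) or CCAG, any 6 bases and CCAG for TFCP2L1 (2.78%). AGGTCA is also part of the FXR and ERR letters and of CAAAGGTCA. A match describes letters in this window and is neither a binding site nor a cause.

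Total counts ran from 9800888 to 22542866 per library. Pld4, the targeted gene, had reads in all 24 libraries: 6.70 to 12.6 CPM in KO and 5.10 to 8.25 CPM in WT at day 0, 13.4 to 32.6 CPM in KO and 46.6 to 50.9 CPM in WT at day 5, and 24.3 to 50.3 CPM in KO and 54.6 to 117 CPM in WT at day 10. KO lay below WT without overlap at day 5 (-1.25 ± 0.27, adjusted p = 0.0724) and day 10 (-1.13 ± 0.27, adjusted p = 0.0331). At day 0 the groups overlapped (0.50 ± 0.29, adjusted p = 0.438), so Pld4 gave no check of the labels there. No proximal tubule, thick limb or collecting duct marker was at 0 in any group. The same was true of the urothelium and B cell markers, so this gave no check of the tissue label. Libraries that stand apart bear on several results. The library labelled KO day 0 replicate 4 had 879 CPM of Xist, transcribed from the inactive X chromosome, and 0.39 CPM of Ddx3y, a Y-linked gene, while the other 23 libraries had at most 0.692 CPM of Xist and at least 58 CPM of Ddx3y. It also had the least Slc7a13, a proximal tubule transporter, in its group, 3.90 CPM against 1820 to 1960 in the other 3. Its summed tubular injury markers were at 4258 CPM, against 1466 to 1849 CPM in the other 3. Summed podocyte markers were at 868.7 CPM, against 337.7 to 418.3 CPM. What sets this library apart was not tested. WT day 10 replicates 2 and 3 had summed neutrophil markers (7 genes) of 4099 and 6885 CPM, against at most 30.01 CPM in any other library. The genes that describe these libraries, Xist, Ddx3y and Slc7a13, were chosen after their values were seen. Some comparisons of the 6 factors with day 0 at day 10, and the list counts that moved, are also given below without these libraries.

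Among the 6 factors, Hnf4a was the most abundant per length and Pax2 the least. Hnf4a averaged 134.5 FPKM in KO and 121.6 FPKM in WT at day 0, and Pax2 4.29 and 4.22 FPKM. On this scale Pax2 had the lowest mean in all 6 groups, and its libraries lay below all those of the factor ranked just above it. At day 0 the order in KO was Hnf4a, Esrra, Nr1h4, Tfcp2l1, Pax8 and Pax2, and Esrra, Nr1h4, Tfcp2l1 and Pax8, at 37.9 to 23.3 FPKM, overlapped with their neighbours. In WT the order was Hnf4a, Nr1h4, Esrra, Tfcp2l1, Pax8 and Pax2, and of these only Tfcp2l1 and Pax8 overlapped. At day 10 Pax8 had the second highest mean in both genotypes, at 47.4 FPKM in KO and 32.8 FPKM in WT. Its libraries overlapped with those of Tfcp2l1, the next factor, in both genotypes, and with those of Hnf4a in WT.

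**Figure D1:**
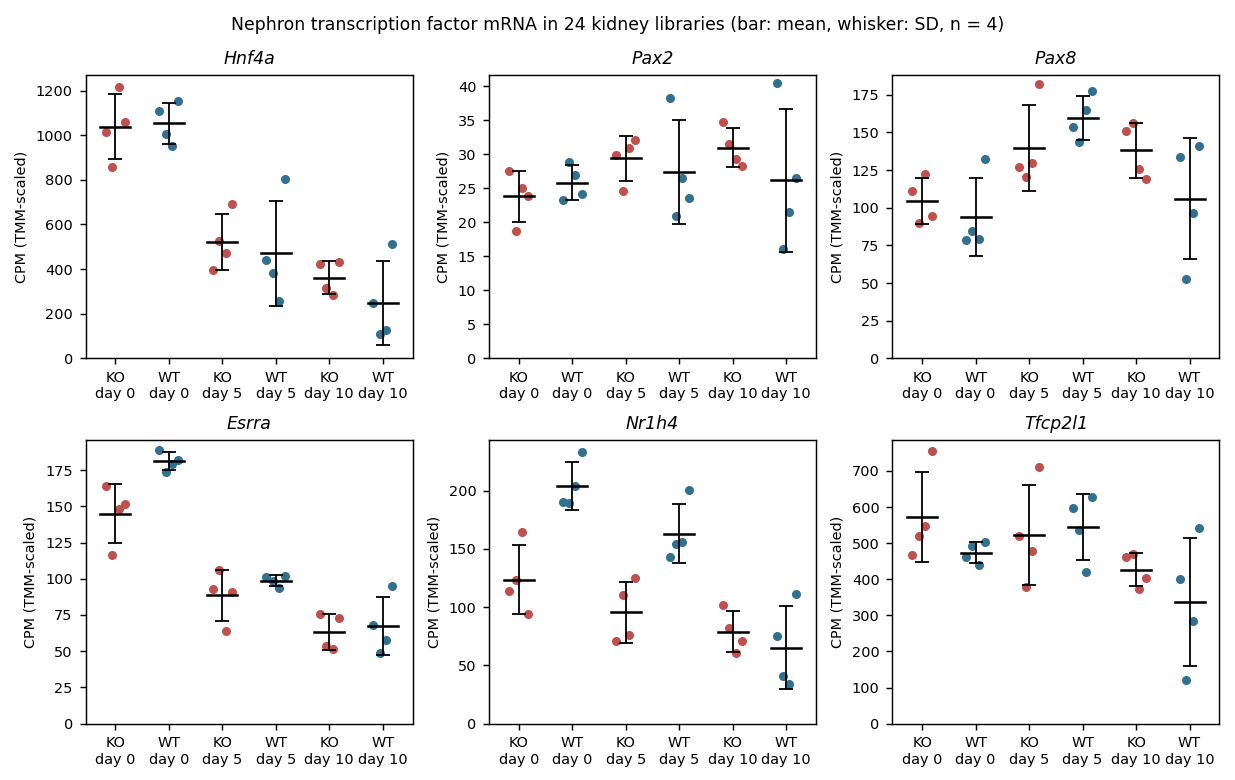
TMM-scaled CPM of the 6 factors in each library, with day 0, 5 and 10 from left to right and KO (red) left of WT (blue), the bar being the mean and the whisker the SD of 4 libraries. Hnf4a and Esrra sit lower in every obstructed library than in any day 0 library of the same genotype, while Pax2 overlaps between most groups.

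On the TMM scale, obstruction lowered Hnf4a and Esrra in both genotypes at both days, and Nr1h4 in WT at day 10. The day 5 calls of Hnf4a and Esrra did not all hold on other scales, as given below. Pax8 was higher in WT at day 5. On the TMM scale, neither Pax2 nor Tfcp2l1 was called in any of the 11 comparisons when all groups were fitted together. Of the 6 factors, 2 were lower at day 5 in KO, where 17% of all genes were lower and 22.4% higher (39.5% called in either direction), and 2 were lower at day 10 in KO (26% lower, 28.3% higher, 54.3% in either direction). In WT 2 were lower and 1 higher at day 5 (25.6% of all genes lower, 31% higher, 56.6% in either direction), and 3 were lower at day 10 (30.3% lower, 37.8% higher, 68.1% in either direction). Counts out of 6 are read against those shares, and nothing particular to the 6 follows from them.

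Hnf4a, the proximal tubule regulator, was the factor that fell furthest. In KO kidneys it stood at 1016, 859, 1214 and 1060 CPM at day 0, at 395, 526, 473 and 691 CPM at day 5 and at 423, 315, 282 and 429.7 CPM at day 10. In WT kidneys it stood at 1107, 1003, 949 and 1151 CPM at day 0, at 441, 384, 256 and 804 CPM at day 5 and at 249, 108, 126 and 513 CPM at day 10. No obstructed library overlapped with the day 0 libraries of its genotype, and replicate 4 was the highest WT library on both obstructed days. The fall was -0.99 ± 0.38 at day 5 (adjusted p = 0.041) and -1.52 ± 0.38 at day 10 (adjusted p = 0.00225) in KO. In WT it was -1.16 ± 0.38 at day 5 (adjusted p = 0.0129) and -2.08 ± 0.39 at day 10 (adjusted p = 8.41e-05), that is, to 0.237 of the day 0 level. The KO day 5 call is near the threshold: it was lost without KO day 0 replicate 4 (-0.98, adjusted p = 0.0652) and in 6 of the 8 fits that leave out 1 library (KO day 0 replicates 1, 3 and 4, and KO day 5 replicates 1, 2 and 3), with values from -1.15 to -0.88. In WT at day 5 the call depended on replicate 3 of that group and was lost when it was left out, with values from -1.50 to -0.92 over the 8 fits. Without WT day 10 replicates 2 and 3 the WT day 10 fall was -1.44 (adjusted p = 0.00208).

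Proximal tubule markers moved with Hnf4a at day 10, and fewer of them were called at day 5. Of 10 such genes, among them Slc34a1 and Lrp2, 9 were lower at day 10 in KO and 10 in WT. Of all genes, 26% were lower in KO and 30.3% in WT. Without KO day 0 replicate 4, 10 markers were lower in KO (24.2% of all genes). Without WT day 10 replicates 2 and 3, 9 markers were lower in WT (24.1% of all genes). At day 5, 4 of the 10 were lower in KO and 7 in WT, against 17% and 25.6% of all genes. Without KO day 0 replicate 4, 2 were lower at day 5 in KO (15.2% of all genes). The summed level of the 10 markers ran from 6330 to 19800 CPM in KO at day 10 against 36100 to 70500 CPM in KO at day 0. In WT it ran from 574 to 26900 CPM at day 10 against 78500 to 92100 CPM at day 0. Kap alone, 1 of the 10, averaged 36840 CPM in KO and 58430 CPM in WT at day 0. The KO day 0 low is replicate 4, the library with Xist, where Kap was at 14000 CPM against 40600 to 48000 CPM in the rest of its group. The WT day 10 low is replicate 2, a library with high neutrophil markers. In bulk tissue, fewer cells of a type and less RNA per cell cannot be told apart, and the part of the cell makeup in the fall of Hnf4a was not tested. The antisense gene Hnf4aos overlaps Hnf4a and held 1 to 237 counts, and the sources used here do not state whether strand was used in counting. Hnf4aos, looked up for this overlap, was called lower in 3 of the 4 comparisons with day 0, with -1.74 ± 0.56 in KO (adjusted p = 0.0126) and -2.72 ± 0.57 in WT (adjusted p = 0.000296) at day 10.

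Esrra, the respiration regulator, fell in the same 4 comparisons with a narrower spread. In KO kidneys it stood at 164, 116, 148 and 152 CPM at day 0, at 92.8, 106, 64.2 and 90.5 CPM at day 5 and at 75.3, 53.4, 51.6 and 73.1 CPM at day 10. In WT kidneys it stood at 189, 174, 179 and 182 CPM at day 0, at 101, 98.5, 93.6 and 102 CPM at day 5 and at 68.2, 48.6, 57.6 and 95.2 CPM at day 10. Every obstructed library lay below all day 0 libraries of its genotype. The fall was -0.71 ± 0.18 at day 5 (adjusted p = 0.00372) and -1.19 ± 0.18 at day 10 (adjusted p = 1.93e-05) in KO. In WT it was -0.87 ± 0.18 (adjusted p = 0.000391) at day 5 and -1.43 ± 0.18 (adjusted p = 1.02e-06) at day 10. On the TMM scale these calls were kept in every fit that left out 1 library. Without WT day 10 replicates 2 and 3 the WT day 10 value was -1.12 (adjusted p = 8.48e-05). Trmt112, on the opposite strand, overlaps Esrra and held 154 to 439 counts per library, so reads in the overlap may count for either gene.

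Nr1h4, the bile acid receptor, was lower in WT at day 10, and its KO and WT libraries did not overlap at day 0 or day 5. In KO kidneys it stood at 114, 123, 164 and 94.1 CPM at day 0, at 71.0, 110.2, 75.9 and 125 CPM at day 5 and at 102, 82.1, 60.5 and 71.3 CPM at day 10. In WT kidneys it stood at 190.1, 189, 203 and 233 CPM at day 0, at 143, 154, 156 and 200.1 CPM at day 5 and at 75.3, 40.8, 33.7 and 111 CPM at day 10. The KO libraries lay below the WT libraries with no overlap at day 0 and day 5, and the groups overlapped at day 10. Against day 0, Nr1h4 fell in WT at day 10 by -1.64 ± 0.29 (adjusted p = 4.27e-05), and by -1.10 without WT day 10 replicates 2 and 3 (adjusted p = 0.00121). In KO it stood at -0.65 ± 0.28 at day 10 (adjusted p = 0.0578), and at -0.76 without KO day 0 replicate 4 (adjusted p = 0.0409); it also passed without KO day 10 replicate 1 and when only the groups compared were fitted (-0.66, adjusted p = 0.0141). At day 5 it stood at -0.37 ± 0.28 in KO (adjusted p = 0.302) and -0.32 ± 0.28 in WT (adjusted p = 0.333).

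Pax8 was the one factor called higher. In KO kidneys it stood at 111, 89.6, 123 and 94.6 CPM at day 0, at 127, 120.4, 129.6 and 182 CPM at day 5 and at 151, 156, 126 and 119 CPM at day 10. In WT kidneys it stood at 78.3, 84.8, 79.3 and 132 CPM at day 0, at 154, 143, 165 and 177 CPM at day 5 and at 133, 52.9, 96.7 and 141 CPM at day 10. The WT day 5 libraries lay above the WT day 0 libraries, while the groups of the other 3 comparisons with day 0 overlapped. The day 5 rise in WT was 0.77 ± 0.23 (adjusted p = 0.00757), and at day 10 Pax8 stood at 0.18 ± 0.23 in WT (adjusted p = 0.506) and at 0.57 without WT day 10 replicates 2 and 3 (adjusted p = 0.0186). In KO it stood at 0.42 ± 0.23 at day 5 (adjusted p = 0.148) and 0.40 ± 0.23 at day 10 (adjusted p = 0.142), and passed at both days when only the groups compared were fitted (0.44, adjusted p = 0.0415, and 0.39, adjusted p = 0.0274).

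Pax2, the paralog of Pax8, had the lowest counts of the 6, and no difference passed the test on the TMM scale with all groups fitted together. In KO kidneys it stood at 27.6, 18.7, 24.98 and 23.9 CPM at day 0, at 29.9, 24.6, 30.9 and 32.1 CPM at day 5 and at 34.8, 31.5, 29.4 and 28.4 CPM at day 10. In WT kidneys it stood at 23.4, 28.8, 27.0 and 24.2 CPM at day 0, at 38.3, 20.9, 26.5 and 23.6 CPM at day 5 and at 40.5, 16.1, 21.5 and 26.5 CPM at day 10. The KO day 10 libraries lay above the KO day 0 libraries without overlap (0.38 ± 0.21, adjusted p = 0.138), and the other groups overlapped with their day 0. When only the groups compared were fitted, Pax2 passed at day 10 in KO (0.36 ± 0.13, adjusted p = 0.0291). Without WT day 10 replicates 2 and 3 the WT day 10 value was 0.40 (adjusted p = 0.0938), against 0.02 with them. The 95% interval at day 10 ran from -0.07 to 0.83 in KO and from -0.43 to 0.46 in WT.

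Tfcp2l1, the collecting duct factor, overlapped with day 0 at both days. In KO kidneys it stood at 468, 520.1, 548.2 and 754 CPM at day 0, at 520.4, 378, 478 and 709.7 CPM at day 5 and at 461, 469, 373 and 403 CPM at day 10. In WT kidneys it stood at 462, 490.7, 440.1 and 502 CPM at day 0, at 597, 536, 420.1 and 629 CPM at day 5 and at 399, 122, 284 and 541 CPM at day 10. The highest KO day 0 value is that of replicate 4, the library with Xist. The day 10 difference was -0.42 ± 0.29 in KO (adjusted p = 0.221; -0.26 without KO day 0 replicate 4) and -0.49 ± 0.29 in WT (adjusted p = 0.136; 0.02 without WT day 10 replicates 2 and 3). Leaving out WT day 10 replicate 4 instead gave -0.80 in WT (adjusted p = 0.0157), and fitting only the groups compared gave -0.44 in KO (adjusted p = 0.0421). Of 8 collecting duct markers, among them Aqp2, 7 were lower at day 10 in KO and 8 in WT. Of all genes, 26% were lower in KO and 30.3% in WT. Without KO day 0 replicate 4, 6 markers were lower in KO (24.2% of all genes). Without WT day 10 replicates 2 and 3, 6 markers were lower in WT (24.1% of all genes). The marker sums were 231 to 372 CPM in KO at day 10 against 645 to 891 CPM in KO at day 0. In WT they were 59.5 to 480 CPM at day 10 against 614 to 898 CPM at day 0.

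**Figure D2:**
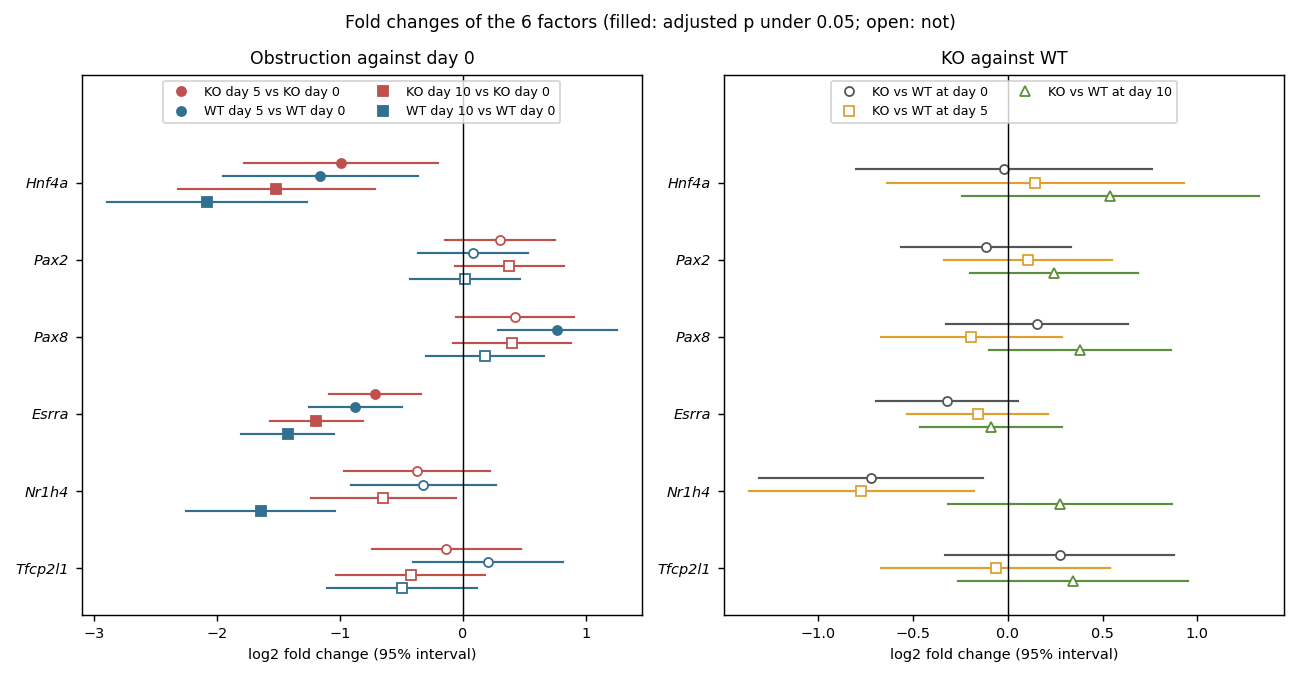
Log2 fold changes of the 6 factors with 95% intervals, for obstruction against day 0 (left) and KO against WT at each day (right), with filled symbols where the adjusted p was under 0.05. Hnf4a and Esrra are filled and negative in all 4 comparisons on the left, and no symbol is filled on the right.

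The direction and calls of the less changed factors, and the day 5 calls of Hnf4a and Esrra, depended on how libraries were scaled. TMM puts the median gene at 0.01 to 0.12 in the comparisons with day 0, while library totals alone put it at 0.34 to 0.62 and log2(FPKM + 1) at 0.47 to 0.54. Of the genes called at day 10, 52.1% in KO and 55.5% in WT were higher with TMM, against 82.2% in KO and 78.3% in WT with totals and 88.2% in KO and 80.2% in WT with log2(FPKM + 1). On both of those scales Pax2 and Pax8 were called higher in all 4 comparisons. At day 10 Pax2 was at 0.83 in KO and 0.53 in WT with library totals, and Pax8 at 0.86 in KO and 0.68 in WT. Relative to the median gene, Pax2 at day 10 was at 0.34 in KO and -0.10 in WT with TMM, at 0.34 in KO and -0.08 in WT with totals, and at 0.38 in KO and -0.05 in WT with log2(FPKM + 1). Hnf4a at day 10 fell on every scale, by -1.08 in KO and -1.59 in WT with totals and by -0.89 in KO and -1.68 in WT with log2(FPKM + 1). Esrra did so too, by -0.56 in KO and -0.80 in WT with log2(FPKM + 1). At day 5 Hnf4a was not called on those scales in either genotype, and Esrra was called only in WT with totals (-0.41). Nr1h4 at day 5 and Tfcp2l1 changed sign between scales: in WT at day 5, Nr1h4 was at -0.32 with TMM and 0.31 with log2(FPKM + 1), and Tfcp2l1, at 0.20 with TMM, was called higher with log2(FPKM + 1) (0.81). In KO at day 10, Tfcp2l1 was at -0.42 with TMM and 0.22 with log2(FPKM + 1).

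**Figure D3:**
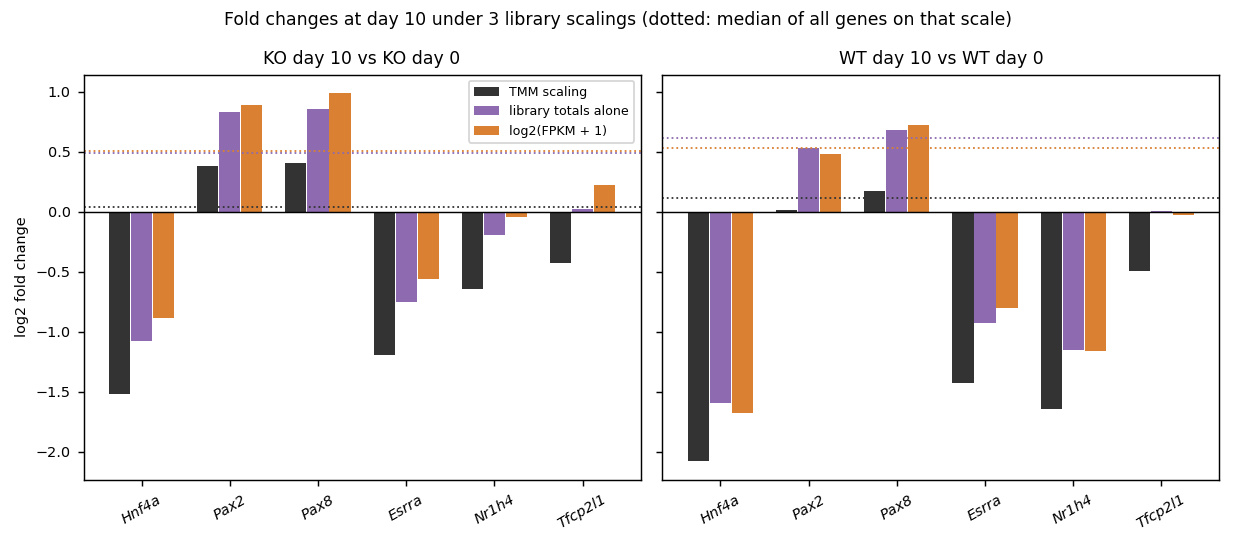
Log2 fold change at day 10 against day 0 of the 6 factors under 3 library scalings, in KO (left) and WT (right), with dotted lines at the median gene of each scale. Hnf4a and Esrra stand below 0 on all 3 scales, while the Pax2 and Pax8 bars are higher by about the shift of the median gene.

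A ratio of genes within a library needs no scaling. The log2 count ratio of Pax2 to Hnf4a was -3.60, -3.32, -3.26 and -3.92 in KO at day 10 against -5.19, -5.50, -5.59 and -5.46 in KO at day 0, and -2.62, -2.73, -2.54 and -4.27 in WT at day 10 against -5.56, -5.11, -5.13 and -5.56 in WT at day 0. Every obstructed library was above every day 0 library of its genotype. In WT at day 5 this was by a narrow gap: replicate 4 was at -5.085, against -5.113 in the highest WT day 0 library. The difference was 1.32 at day 5 and 1.91 at day 10 in KO, and 1.33 at day 5 and 2.30 at day 10 in WT. Each had p = 0.0286 in a two-sided exact permutation test, the smallest that 4 against 4 allows, or 0.129 adjusted over the 18 ratio comparisons. The ratio shows unequal change of the pair and not which of them changed. The ratio of Pax2 to Pax8 overlapped between obstruction and day 0 in all 4 comparisons, with differences from -0.76 to -0.02.

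**Figure D4:**
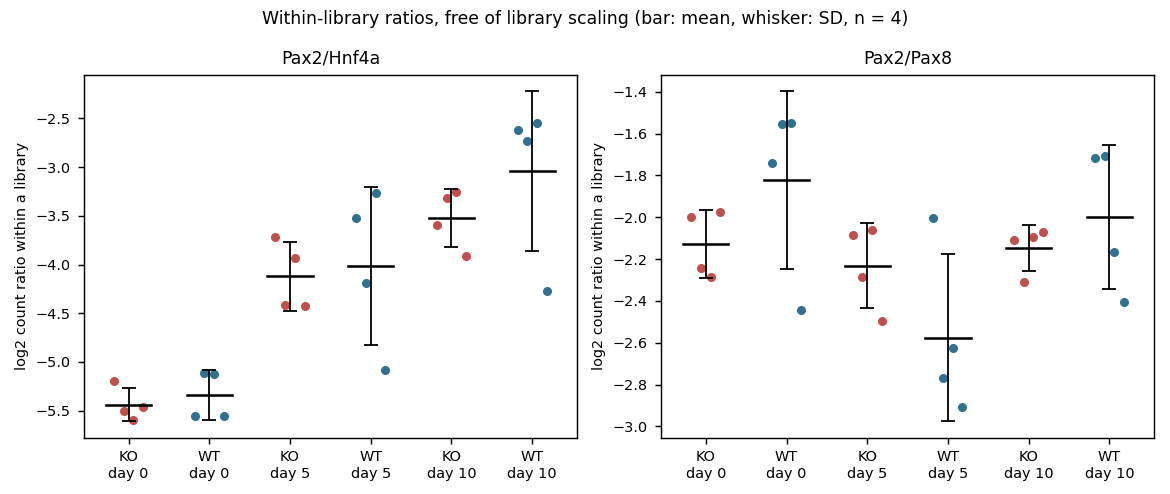
Log2 count ratio within each library of Pax2 to Hnf4a (left) and Pax2 to Pax8 (right), with KO (red) left of WT (blue) at each day, the bar being the mean and the whisker the SD of 4 libraries. On the left, all obstructed libraries lie above the day 0 libraries of their genotype, and WT day 10 replicate 4 lies at -4.27, below the other 3 at -2.73 to -2.54.

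Between the obstructed days only Nr1h4 in WT passed the test, and whether KO and WT differed in this step was not tested. In KO, 0 of 6 were called at day 10 against day 5 (0.0199% of all genes), and 1 of them, Esrra, had an unadjusted p under 0.05 (-0.48 ± 0.18, adjusted p = 0.378). DESeq2 also called 0. In WT, Nr1h4 was lower at day 10 than at day 5 by -1.32 ± 0.29 (adjusted p = 0.00805), 1 of 6 against 2.93% of all genes lower and 10.8% in either direction, and its groups did not overlap. Esrra stood at -0.55 ± 0.18 (adjusted p = 0.05, not passing), and Hnf4a at -0.92 ± 0.38 (adjusted p = 0.114). With a term for the replicate number, where all 4 same-numbered pairs correlated above 0.1, 3 of 6 were called: Nr1h4 (-1.37, adjusted p = 0.0151), Hnf4a (-0.998, adjusted p = 0.0361) and Esrra (-0.58, adjusted p = 0.0267). That fit called 1847 of 15080 genes. Without WT day 10 replicates 2 and 3, 0 of all 15294 genes tested were called, and so none of the 6. Nr1h4 stood at -0.82 there (adjusted p = 0.612). Without WT day 10 replicate 4, 5 of 6 were called lower, all but Pax2, with Hnf4a at -1.56 (adjusted p = 0.0014). Pax8 also passed without WT day 10 replicate 1. Over all genes, the fits that leave out 1 library called from 359 to 4515, and the counts out of 6 are read beside this.

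KO against WT gave no call among the 6 factors at any day with all groups fitted together, in edgeR's quasi-likelihood test or in DESeq2. When only the day 0 groups were fitted, edgeR called Nr1h4 lower in KO (-0.70 ± 0.15, adjusted p = 0.016), beside 1507 of 13634 genes called. At day 0, 0 of 6 were called against 4.18% of all genes, and 1 of them, Nr1h4, had an unadjusted p under 0.05. Nr1h4 was at 124 CPM ± 29.6 in KO and 204 CPM ± 20.5 in WT (SD, n = 4 each; -0.72 ± 0.28, adjusted p = 0.187), and at -0.61 without KO day 0 replicate 4 (adjusted p = 0.462). Esrra was at 145 CPM ± 20.3 in KO and 181 CPM ± 6.11 in WT (-0.32 ± 0.18, adjusted p = 0.412), with no overlap. At day 5 Nr1h4 was again lower without overlap, 95.5 CPM ± 26.2 in KO and 163 CPM ± 25.3 in WT (-0.77 ± 0.28, adjusted p = 0.279), where 0.146% of all genes were called, and it was again the 1 factor with an unadjusted p under 0.05. At day 10, with 1.41% of all genes called and 0 of 6 at an unadjusted p under 0.05, the 6 differences ran from -0.09 (Esrra) to 0.54 (Hnf4a), with 95% intervals as wide as -0.24 to 1.33 for Hnf4a. Without WT day 10 replicates 2 and 3 the signs of Hnf4a (-0.08), Pax2 (-0.12), Nr1h4 (-0.25) and Tfcp2l1 (-0.15) turned.

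The test of whether obstruction acted differently in KO and WT called 0 of 6 at day 5 (0.564% of all genes) and 0 of 6 at day 10 (3.25%), in both tools. At an unadjusted p under 0.05 there were 0 at day 5 and 1, Nr1h4, at day 10. The largest difference at day 10 was that of Nr1h4, 1.00 ± 0.40 (adjusted p = 0.209), a smaller fall in KO than in WT, and it was 0.46 without WT day 10 replicates 2 and 3 (adjusted p = 0.901). Leaving out WT day 10 replicate 4 instead brought Nr1h4 past the threshold (1.37, adjusted p = 0.0153), and Hnf4a in KO against WT at day 10 (1.16, adjusted p = 0.0231).

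Genes associated with each factor were described from 7 lists, counted on the TMM scale. The proximal tubule genes listed with Hnf4a were lower as a group, 22 of 26 at day 10 in KO and 25 of 26 in WT, and 0 were higher in either. Of all genes, 26% were lower in KO and 30.3% in WT. The list median was -2.38 in KO (all genes 0.04) and -2.88 in WT (all genes 0.12). Several listed genes, such as Lrp2, Cubn and Slc34a1, are also among the proximal tubule markers above. Without WT day 10 replicates 2 and 3, 22 of 26 were lower in WT (median -2.05), and without KO day 0 replicate 4, 21 were lower in KO (median -2.21). In these fits 24.1% of all genes were lower in WT and 24.2% in KO. Lrp2, the endocytic receptor megalin, was lower by -2.37 ± 0.54 in KO (adjusted p = 0.001) and -2.89 ± 0.55 in WT (adjusted p = 0.000101). Its partner Cubn was lower by -1.98 ± 0.56 in KO and -2.46 ± 0.57 in WT. The amino acid enzymes Gatm (-3.10 ± 0.41 in KO, -2.80 ± 0.41 in WT) and Ass1 (-2.45 ± 0.59 in KO, -2.88 ± 0.60 in WT) were lower too. At day 5, 13 of the 26 listed genes were lower in KO and 15 in WT, against 17% and 25.6% of all genes. Without KO day 0 replicate 4, 7 were lower at day 5 in KO (15.2% of all genes).

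The respiration genes listed with Esrra were lower at both days, 27 of 28 at day 5 and 27 at day 10 in KO, and 26 at each in WT. In WT 1 was higher at day 5, and 0 were higher in the other comparisons. Of all genes, 17% were lower at day 5 and 26% at day 10 in KO, and 25.6% at day 5 and 30.3% at day 10 in WT. Without KO day 0 replicate 4, 24 of 28 were lower at day 5 in KO, against 15.2% of all genes. The medians of the listed genes at day 10 were -1.36 in KO and -1.79 in WT. The respiratory chain subunits Cox5a (-1.30 ± 0.17 in KO, -1.38 ± 0.17 in WT) and Sdhb (-1.53 ± 0.26 in KO, -1.91 ± 0.26 in WT) were among them at day 10. Perm1, a regulator that acts with Esrra in muscle, was lower by -5.04 ± 0.44 in KO and -4.49 ± 0.41 in WT. Its levels at day 10 were low, at means of 0.476 CPM in KO and 0.799 CPM in WT. The coactivator Ppargc1a, looked up after the values were seen, was lower at day 10 by -1.24 ± 0.35 in KO (adjusted p = 0.00571) and -1.49 ± 0.36 in WT (adjusted p = 0.000918).

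Of 10 tested genes listed with Nr1h4, 5 were lower and 1 higher at day 10 in KO, and 7 lower and 2 higher in WT. The share called in either direction, 60% in KO and 90% in WT, stands beside 54.3% of all genes in KO and 68.1% in WT, and the KO share is near that background. In KO 4 were lower and 2 higher without KO day 0 replicate 4 (all genes 24.2% lower and 26.9% higher). In WT 6 were lower and 3 higher without WT day 10 replicates 2 and 3 (all genes 24.1% lower and 32.4% higher). Nr0b2, also on the nuclear receptor list, the small heterodimer partner that FXR induces in liver, was lower by -2.62 ± 0.57 in KO (adjusted p = 0.000681) and -3.60 ± 0.62 in WT (adjusted p = 3.67e-05), at levels of 0.419 CPM in KO and 0.188 CPM in WT at day 10. The transporter Abcc2 was lower by -1.45 ± 0.47 in KO and -2.31 ± 0.48 in WT, and the bile acid transporter Slc10a2 by -1.50 ± 0.56 in KO and -1.90 ± 0.57 in WT. Pltp, a phospholipid transfer protein, was higher by 2.24 ± 0.23 in KO and 3.11 ± 0.24 in WT, and it was the only gene of the 7 lists called between KO and WT, higher in KO at day 0 (0.92 ± 0.23, adjusted p = 0.0229). Rxra, looked up after the values were seen, was lower at day 10 by -0.86 ± 0.22 in KO and -1.06 ± 0.22 in WT.

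Of 19 tested genes listed with Pax2 and Pax8, 9 were higher and 4 lower at day 10 in KO, and 10 higher and 5 lower in WT. All genes stood at 28.3% higher and 26% lower in KO and at 37.8% higher and 30.3% lower in WT. The shares of lower genes are near those of all genes, and the shares of higher genes are above them, which was not tested. Without KO day 0 replicate 4, 11 of 20 tested were higher and 2 lower in KO (all genes 26.9% higher and 24.2% lower), with a median of 0.93 against 0.39 with it. Without WT day 10 replicates 2 and 3, 10 of 20 tested were higher and 4 lower in WT (all genes 32.4% higher and 24.1% lower). Wnt4, which starts tubule formation in the embryo, was higher by 3.26 ± 0.49 in KO and 3.39 ± 0.50 in WT, and Sox4 by 2.77 ± 0.25 in KO and 2.70 ± 0.25 in WT. Sox9 (4.50 ± 0.34 in KO, 5.10 ± 0.35 in WT) and Spp1 (3.54 ± 0.38 in KO, 4.18 ± 0.39 in WT) are also on the list of tubular injury markers, of which 11 of 11 were higher in both genotypes.

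Of 25 genes listed with Tfcp2l1, 16 were lower and 3 higher at day 10 in KO, and 19 lower and 3 higher in WT. The list holds all 8 collecting duct markers counted above. Of all genes, 26% were lower and 28.3% higher in KO, and 30.3% lower and 37.8% higher in WT. In KO 15 listed genes were lower and 3 higher without KO day 0 replicate 4, where 24.2% of all genes were lower and 26.9% higher. In WT 13 were lower and 3 higher without WT day 10 replicates 2 and 3, where 24.1% of all genes were lower and 32.4% higher. The anion exchangers of intercalated cells were lower: Slc4a1 by -3.72 ± 0.66 in KO and -4.01 ± 0.67 in WT, and Slc26a4 by -2.08 ± 0.37 in KO and -1.98 ± 0.36 in WT. Oxgr1 was lower by -2.12 ± 0.45 in KO and -2.14 ± 0.46 in WT. Krt18, a simple-epithelium keratin that is also an injury marker, was higher by 2.85 ± 0.32 in KO and 2.69 ± 0.32 in WT.

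**Figure D5:**
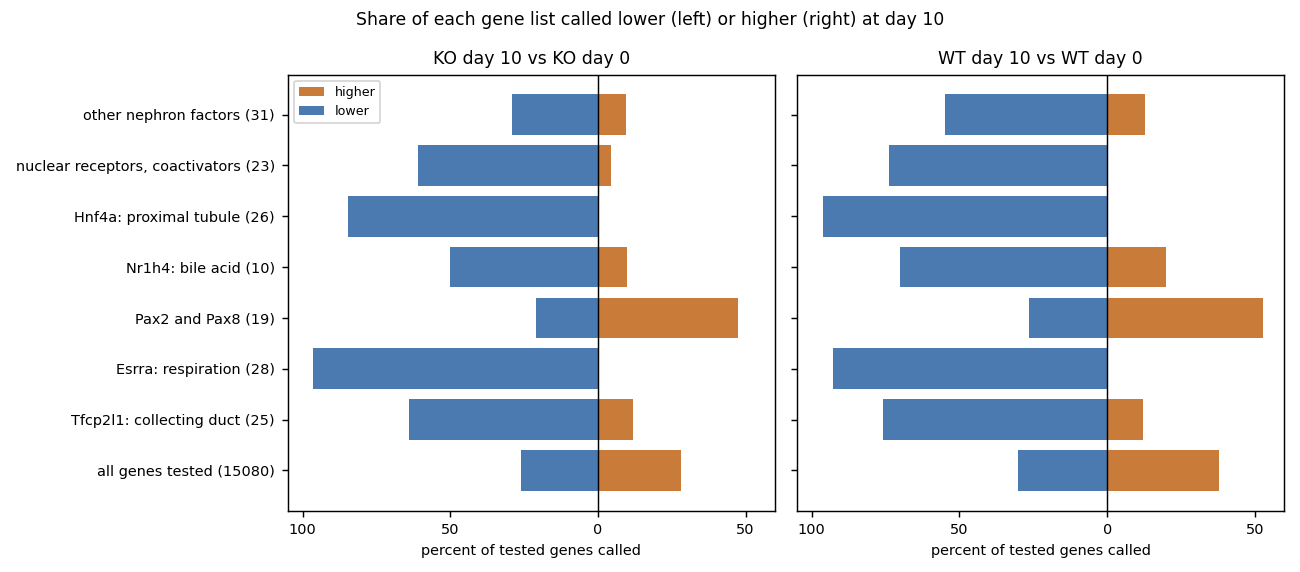
Share of the tested genes of each list called lower (blue, to the left) or higher (orange, to the right) at day 10 in KO (left) and WT (right), with all 15080 genes tested as the bottom bar and list sizes in brackets. The Hnf4a and Esrra lists are lower in at least 84.6% of their genes, against 26% of all genes in KO and 30.3% in WT.

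Among 31 tested other nephron factors, 9 were lower and 3 higher at day 10 in KO, and 17 lower and 4 higher in WT. The share lower in KO is near that of all genes (26% lower, 28.3% higher), and in WT all genes stood at 30.3% lower and 37.8% higher. In KO 8 of the 31 were lower and 4 higher without KO day 0 replicate 4, where 24.2% of all genes were lower and 26.9% higher. In WT 10 were lower (32.3%) and 5 higher (16.1%) without WT day 10 replicates 2 and 3, where 24.1% of all genes were lower and 32.4% higher. Elf3, an epithelial ETS factor, was higher by 2.28 ± 0.27 in KO and 2.07 ± 0.27 in WT, and its relative Ehf by 0.55 ± 0.19 in KO and 0.78 ± 0.20 in WT. Lhx1 was lower by -1.40 ± 0.39 in KO and -1.70 ± 0.40 in WT, and Cux1 by -0.71 ± 0.15 in KO and -0.96 ± 0.15 in WT. Of 23 nuclear receptors and coactivators, 14 were lower and 1 higher in KO, and 17 lower and 0 higher in WT. Without KO day 0 replicate 4, 13 of 23 were lower and 2 higher in KO. Without WT day 10 replicates 2 and 3, 12 of 24 were lower and 2 higher in WT. The shares of all genes in these fits are those given above for the other nephron factors. Among those lower with all libraries were the vitamin D receptor Vdr (-1.37 ± 0.28 in KO, -1.77 ± 0.28 in WT) and the oxysterol receptor Nr1h3 (-1.13 ± 0.21 in KO, -1.08 ± 0.21 in WT).

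The genes whose log2 CPM followed each factor most closely over the 24 libraries were found by Pearson's r among 14094 genes. For Hnf4a they were Aco1 (0.991), Acad11 (0.991) and Glyctk (0.99), and for Esrra Mrpl4 (0.98), Ndufs3 (0.979) and Atp5g1 (0.979). For Nr1h4 they were Plin5 (0.936), Wdr45 (0.918) and Angptl7 (0.913), and for Tfcp2l1 Exph5 (0.934), Scnn1b (0.923) and Asb15 (0.92). For Pax8 they were Pkp2 (0.853), Ezr (0.838) and Nt5c2 (0.837), and for Pax2 Cc2d2a (0.846), Iqce (0.837) and Zfp316 (0.816). Among the factors themselves Hnf4a and Esrra were most alike (0.873), Pax2 and Pax8 stood at 0.578, and Hnf4a and Pax2 at 0.044. These values describe 24 libraries that share the day 0 and obstruction split, and carry no test.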

How the data were processed

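Kidney RNA of 24 mouse libraries was extracted with TRIzol and made into TruSeq stranded mRNA libraries for a NextSeq500, per the labels' protocols. The submitters' processing notes name bcl2fastq 2.16, STAR 2.5, Cufflinks and build mm9. How genes were counted, and whether strand was used, is not given in the sources used here. The authors deposited raw counts per gene for 23955 symbols and FPKM for 23953, of which 23894 are in both. Because the RefSeq promoter windows are of build GRCm38.p6, no gene coordinates of the files are given, and overlaps between genes come from the reference annotation.

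Groups came from the labels. Counts were filtered with edgeR's filterByExpr (at least 10 counts, 15 in total), scaled by TMM and tested with the edgeR 4.0.16 quasi-likelihood test in R 4.3.3 with 1 mean per group, 18 residual degrees of freedom and Benjamini-Hochberg adjustment over 15080 genes. TMM factors were 0.764 to 0.870 at day 0 and 0.976 to 1.22 after obstruction. Ratios used exact permutation tests. Alternatives were DESeq2 1.42.0, limma 3.58.1 on log2(FPKM + 1) and log2(FPKM + 0.1), other scalings and filters, a replicate term and each library left out. The scripts were tested on simulated data. No library was a duplicate of another in its group by a chi-square test of counts. Pairs of libraries from different groups were not compared.

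The members and lists were chosen with earlier results of these data known. The 6 factors and Pld4 are named throughout; of each list, up to 4 genes are named with the smallest largest adjusted p over the 4 comparisons with day 0, plus any called between genotypes; and for each factor, the 3 genes most correlated with it. Same-numbered libraries correlated above 0.1 in all 4 pairs for KO against WT at day 10 (0.141 to 0.306) and for WT day 10 against day 5 (0.105 to 0.361). The labels do not say what a number shares. A few genes and a motif that these rules cover are not reported here.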

Additional observations from a re-analysis of the deposited data

Results flagged for a closer look

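Of 48 sets of 4 libraries examined, 3 held 1 library whose gap to the others was large for the range of the 4; chance gives about 1 in 20. Pax8 in WT day 0 replicate 4 was 133 CPM, against 78.3 to 84.9 CPM in the other 3 libraries. Pax8 in KO day 5 replicate 4 was 182 CPM, against 120 to 130 CPM in the others. The log2 ratio of Pax2 to Hnf4a in WT day 10 replicate 4 was -4.27, against -2.73 to -2.54 in the others.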

How the results depend on the processing

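No value changed sign while called. The number of the 6 factors called, with 1 library left out at a time, ranged from 1 to 2 for KO day 5 against day 0, from 0 to 1 for KO against WT at day 10 and for the genotype difference at day 10, and from 1 to 5 for WT day 10 against day 5; the 5 were reached without WT day 10 replicate 4. With no filter on counts, 1 was called for KO day 5 against day 0, beside 5674 of 19555 genes. With 1 library left out, that comparison had 4642 to 5634 calls over all genes. For KO day 10 against day 0, 4 were called with library totals and with all 3 FPKM settings, and 6 when only the groups compared were fitted. Over all genes, 9553 of 15080 were called there with library totals and 9545 of 13588 with log2(FPKM + 1). With only the groups compared it was 9084 of 14433. For WT day 10 against day 0, 5 were called with library totals and with the FPKM settings. Over all genes, 11189 of 15080 were called there with library totals and 10383 of 13588 with log2(FPKM + 1). For KO against WT at day 0, 1 was called (Nr1h4, -0.70, adjusted p = 0.016) when only the groups compared were fitted, beside 1507 of 13634 genes. For WT day 10 against day 5, 2 were called with a CPM filter, DESeq2, library totals and the FPKM settings, 3 with the replicate block, and 0 when only the groups compared were fitted or without WT day 10 replicates 2 and 3. Over all genes, the CPM filter called 1502 of 14231, DESeq2 2225 of 15080, library totals 1534 and log2(FPKM + 1) 1438 of 13588. The replicate block called 1847 of 15080, and the settings with 0 of 6 called 0 genes of all tested. The causes were not tested. The replicate block brought Nr1h4 at day 10 in KO to -0.68 (adjusted p = 0.047). Leaving out WT day 10 replicates 2 and 3 together, library totals alone and the list counts without libraries were chosen after seeing the data.

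Over all genes, KO against WT at day 10 had 212 calls, and 19 with the replicate block, 473 with DESeq2, 25 to 72 with FPKM, 0 with only the groups compared and 69 without WT day 10 replicates 2 and 3. At day 0 the 630 calls became 975 with DESeq2, 318 and 361 with log2(FPKM + 1), and 1507 with only the groups compared. At day 5 the 22 became 87 with DESeq2 and 41 to 55 with FPKM. For the genotype difference, the 85 at day 5 became 272 with DESeq2, 6 with log2(FPKM + 1), 510 with only the groups compared and 136 with library totals; the 490 at day 10 became 849, 1 to 161 with FPKM, 2 with only the groups compared and 153 without WT day 10 replicates 2 and 3. Day 10 against day 5 had 3 calls in KO (72 with DESeq2, 2 to 15 in other fits) and 1628 in WT (0 with only the groups compared and 0 without WT day 10 replicates 2 and 3). KO day 5 against day 0 had 5951, and 9293 with unfiltered FPKM. With 1 library left out at a time, the counts ran from 296 to 702 (KO against WT at day 0), 9 to 1935 (day 5), 23 to 2045 (day 10), 27 to 884 and 246 to 1808 (genotype difference at day 5 and day 10), 0 to 12 (KO day 10 against day 5) and 359 to 4515 (WT day 10 against day 5). Fold changes against day 0 had SEs from 0.18 (Esrra) to 0.39 (Hnf4a).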
